A study of Mus musculus with 24 samples.

Results

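The MHC class II genes are a family of 10 genes here, H2-Aa, H2-Ab1, H2-Ea, H2-Eb1, H2-DMa, H2-DMb1, H2-Oa, H2-Ob, Cd74 and Ciita, and their probes were taken by annotated gene symbol from the CodeLink (CL) and Affymetrix (Affy) value tables. On CL 8 of 17440 probes belonged to the family, 1 for each of 8 genes, and all 8 were tested. H2-Ea and H2-DMb1 had no CL probe under their symbol. Unshared probes named 10956 genes in all on CL and 12394 on Affy. On Affy 14 of 22690 probe sets carried 1 symbol of the family, for 8 genes, and 13 of them passed the filter on dim signals. Another 3 Affy probe sets are shared with a neighbouring gene, 2 between H2-DMb1 and H2-DMb2 and 1 between H2-Ob and Gm20506, and they were kept apart from the counts. The RNA came from exorbital lacrimal glands of adult female mice of 2 autoimmune strains that had received a subcutaneous pellet of placebo or testosterone (T). MRL/lpr mice carry the lpr mutation of Fas, the death receptor of activated lymphocytes, so both MRL/lpr groups lack normal Fas. The other strain was NOD, the nonobese diabetic mouse. Either strain with either pellet makes 4 groups of 3 gland pools. RNA of every pool was hybridized on both platforms, which thus repeat the hybridization and not the mice. By the sample labels, MRL/lpr pools joined glands of 6 mice treated for 18 days and NOD pools those of 2 to 4 mice treated for 21 days. The methods give both strains the same length of treatment, so labels and methods differ on it. By the methods, NOD mice were also some weeks older than MRL/lpr mice when the pellets were implanted. Strain cannot be told apart from age, from pool size or, if the labels hold, from length of treatment.

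MHC class II molecules carry peptides from ingested proteins to the surface of B cells, dendritic cells and macrophages, where CD4+ T cells read them. An alpha and a beta chain form each molecule, H2-Aa with H2-Ab1 as I-A and H2-Ea with H2-Eb1 as I-E. Cd74, the invariant chain, fills the groove during transport, H2-DM (H2-DMa with H2-DMb1) exchanges the last piece of Cd74 for peptide, H2-DO (H2-Oa with H2-Ob) restrains H2-DM, mainly in B cells, and Ciita is the coactivator without which the family is barely transcribed. Interferon gamma is the classical inducer of Ciita and, through it, of class II in other cell types, epithelium included. The strains differ at the locus itself. MRL/lpr mice are of the H2k haplotype and NOD mice of H2g7, whose I-A beta chain is unusual and which makes no H2-Ea transcript, so that NOD mice have no I-E on their cells.

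The class II promoters share short boxes, an X box bound by the RFX complex and a Y box, an inverted CCAAT motif bound by NF-Y, on which Ciita docks. They are shown because the boxes are the sequence through which Ciita is known to act on the family. RefSeq promoter windows of GRCm38.p6 were at hand for 6 of the 10 genes, all on chromosome 17, and come from the C57BL/6J reference mouse, not from either strain. The letters TGATTGG, chosen as a Y box after these windows had been read, were found on 1 strand or the other in 5 of the 6 genes and in 7.82% of all 32851 promoter windows of the same length. The shorter ATTGG was found in all 6 and in 37.41% of windows, and AACNNNTGA, part of the X box, in H2-DMb1, H2-Eb1 and H2-Ob and in 11.92% of windows. In these 3 genes AACNNNTGA was followed by TGATTGG after 5 to 40 bases, an arrangement present in 0.08% of all windows. Since TGATTGG was chosen from the members' own windows, that share is a description and no test. Both motifs are in capitals in these stretches, which are written 5′ to 3′ on the strand of the gene.
H2-Aa (minus strand, chr17:34287847-34287923): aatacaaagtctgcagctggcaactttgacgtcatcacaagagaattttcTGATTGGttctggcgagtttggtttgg
H2-Eb1 (plus strand, chr17:34305756-34305832): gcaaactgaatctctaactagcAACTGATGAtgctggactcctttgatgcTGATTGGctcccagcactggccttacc
H2-DMb1 (plus strand, chr17:34153078-34153154): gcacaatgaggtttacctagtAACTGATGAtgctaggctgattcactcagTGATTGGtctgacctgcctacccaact
H2-Oa (plus strand, chr17:34092284-34092360): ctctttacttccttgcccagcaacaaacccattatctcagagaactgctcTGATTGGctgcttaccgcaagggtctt
H2-Ob (plus strand, chr17:34238796-34238872): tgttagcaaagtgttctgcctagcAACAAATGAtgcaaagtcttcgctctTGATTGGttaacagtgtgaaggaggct
The Y box began between 45 and 63 bases before the annotated start site. H2-DMa, with 2 annotated start sites, held neither TGATTGG nor AACNNNTGA in its windows. H2-DMa rose with T in NOD, and H2-Oa and H2-Ob, which hold TGATTGG, were not called there. On CL the NOD T pools of H2-Oa lay above its placebo pools all the same, and the change of H2-Ob could not be read. Whether the boxes bear on the response to T was not tested. A match is a description of these letters, and no binding was measured.

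CL signals are intensities that the authors divided by each array's median, with a floor of 0.5 below which signals were raised to the floor. Affy signals were scaled here to a trimmed mean of 500 per array, with a floor of 70.5. A probe's level can be compared between pools but not with another probe's level. Changes are log2 values from limma with their SE and with p adjusted over all 13615 CL or 17891 Affy probes tested, and a call is an adjusted p under 0.05. Pools of a group correlated at 0.932 to 0.982 on CL and at 0.925 to 0.989 on Affy. In 1 pool salivary gland RNA was prominent. MRL/lpr placebo pool 1 had a CL signal of 2239 for Bpifa2, a salivary secretory protein, against 0.45 and 2.99 in the other pools of its group. The trimmed mean of the deposited Affy signals was 43.2 in NOD T pool 1 against 150 and 141 in the other NOD T pools. It ran from 32.2 to 45.2 in MRL/lpr placebo, from 22.1 to 31.7 in MRL/lpr T and from 45.1 to 82.5 in NOD placebo. NOD T pool 1 thus lay within the range of the other groups, and the other NOD T pools lay above every other Affy array. The brightness of the arrays before scaling went partly with strain and treatment. The counts of members are given with and without MRL/lpr placebo pool 1, and with and without NOD T pool 1, where these differ.

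In NOD glands T raised the chains of I-A and the beta chain of I-E by 2.54-fold to 4.48-fold on every probe, and in MRL/lpr glands the same genes were called lower under T on some probes and higher on none. H2-Aa, the I-A alpha chain (chr17:34282744-34287823, minus strand), had CL signals of 32.8, 26.1 and 30.5 in NOD placebo pools 1 to 3 and of 73.1, 91.9 and 114 in NOD T pools. Its signals in MRL/lpr were 77.0, 97.6 and 91.6 under placebo and 58.9, 48.1 and 50.9 under T. The T pools thus all lay above the placebo pools in NOD and all below them in MRL/lpr, and NOD placebo was the lowest of the 4 groups. The log2 change was 1.63 ± 0.20 in NOD (SE, adjusted p = 0.00012) and -0.75 ± 0.20 in MRL/lpr (adjusted p = 0.0251), and the change in NOD exceeded that in MRL/lpr by 2.38 ± 0.28 (adjusted p = 0.000472). Both H2-Aa probe sets on Affy gave the same order of groups within each strain. On 1452431_s_at signals were 2309, 1329 and 1748 in NOD placebo, 3817, 7329 and 5442 in NOD T, 5642, 5626 and 4707 in MRL/lpr placebo and 2727, 2392 and 2545 in MRL/lpr T. No pool of 1 treatment reached into the range of the other in either strain. This probe set rose by 1.61 ± 0.24 in NOD (adjusted p = 0.000204) and fell by 1.06 in MRL/lpr (SE 0.24, adjusted p = 0.0105), while 1435290_x_at rose by 1.34 ± 0.24 in NOD (adjusted p = 0.00139) and stood at -0.78 ± 0.24 in MRL/lpr without being called (adjusted p = 0.0605). The MRL/lpr call of H2-Aa was lost on CL without MRL/lpr placebo pool 2 or 3 or T pool 2 or 3 (adjusted p up to 0.0962), and on 1452431_s_at without placebo pool 1, which holds the salivary signal (adjusted p = 0.0539), placebo pool 2 or T pool 2.

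H2-Eb1, the I-E beta chain (chr17:34305867-34316674), moved in the same way. On CL its signals were 19.3, 17.3 and 19.3 in NOD placebo, 42.2, 76.6 and 58.8 in NOD T, 55.1, 66.4 and 42.7 in MRL/lpr placebo and 35.1, 31.3 and 36.7 in MRL/lpr T. NOD placebo was again the lowest group, with no overlap with any other. The change was 1.63 ± 0.23 in NOD (adjusted p = 0.000382) and -0.65 ± 0.23 in MRL/lpr (adjusted p = 0.0922), a difference of 2.28 ± 0.32 (adjusted p = 0.00122). On Affy H2-Eb1 read 2303, 1926 and 2696 in NOD placebo, and its NOD T pools were almost level, at 9040, 9343 and 9441. In MRL/lpr it read 8261, 6913 and 5434 under placebo and 2724, 3105 and 5002 under T. The rise in NOD was 2.02 ± 0.23 (adjusted p = 1.44e-05) and the fall in MRL/lpr was -0.96 ± 0.23 (adjusted p = 0.0158). That fall was not called without placebo pool 1 (-0.82, adjusted p = 0.0927), without placebo pool 2 or without T pool 1 or 2. NOD T pools reached the level of the MRL/lpr placebo pools on CL, where the ranges overlapped, and lay above all of them on Affy.

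**Figure D1:**
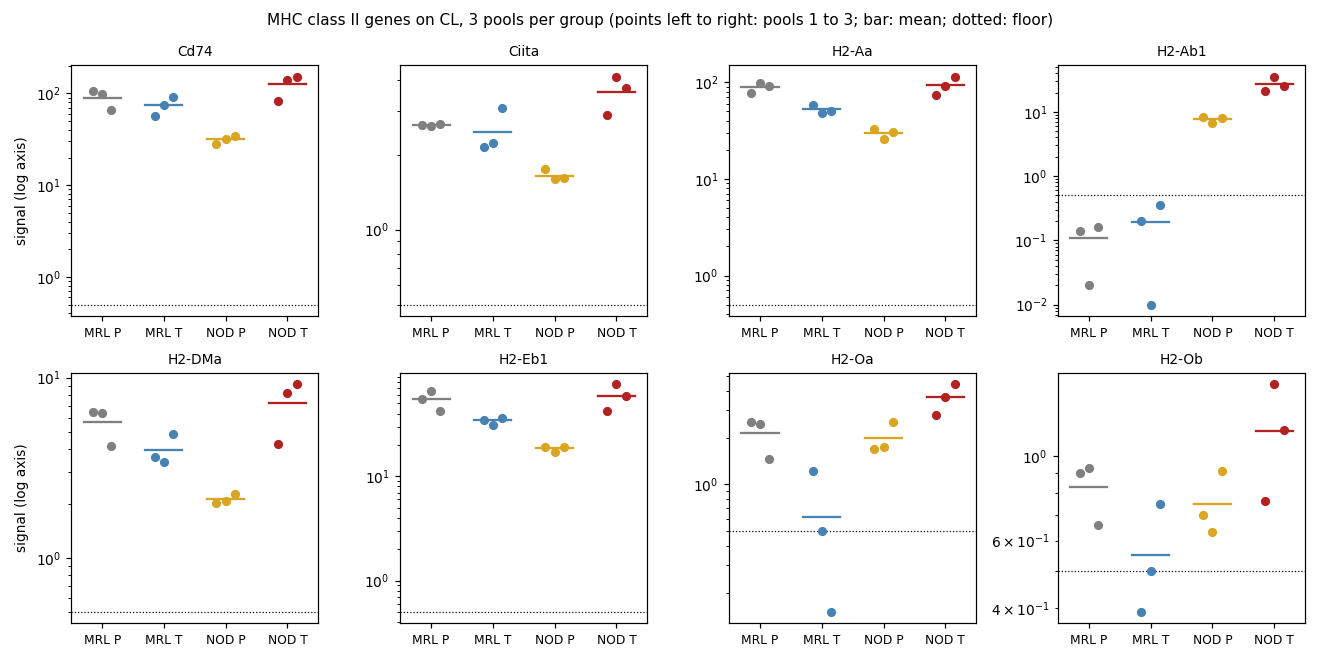
CL signals of the 8 class II probes on a log axis, with 1 panel per gene and 3 pools in each of the 4 groups; P is placebo, bars are group means, the dotted line is the floor of 0.5, and signals under 0.01 are drawn at 0.01. NOD T pools stand above NOD placebo pools for every gene but H2-Ob, and all 6 MRL/lpr pools of H2-Ab1 lie under the floor.

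H2-Ab1, the I-A beta chain (chr17:34263227-34269418), is where the probes did not tell the same story about the strains, although they did about T in NOD. Its CL probe had signals of 8.39, 6.69 and 7.98 in NOD placebo and 20.8, 35.3 and 25.4 in NOD T. All 6 MRL/lpr pools were marked near background by the scanner software, between 0.01 and 0.35, so that no change with T can be read there. The signal rose by 1.79 ± 0.21 with T in NOD (adjusted p = 0.000112), and NOD was at least 7.78-fold higher than MRL/lpr under placebo and at least 20.6-fold higher under T (adjusted p = 5.67e-07 and 5.62e-08). The probe passed the filter through NOD alone and so had to differ between strains, and these folds are a description. These bounds set the MRL/lpr pools to the lowest signal above background on each array. The Affy probe sets all detected H2-Ab1 in MRL/lpr. On 1451721_a_at the signals were 1518, 1086 and 1188 in MRL/lpr placebo, 470, 331 and 470 in MRL/lpr T, 775, 480 and 722 in NOD placebo and 1147, 3123 and 2278 in NOD T. Neither strain had overlap between treatments here, with a fall of -1.58 ± 0.31 in MRL/lpr (adjusted p = 0.00418) that was called without any 1 pool as well, and a rise of 1.64 ± 0.31 in NOD (adjusted p = 0.00206). On 1425477_x_at NOD placebo lay above MRL/lpr placebo instead, at 658, 623 and 762 against 451, 309 and 364 (log2 difference 0.87 ± 0.26, adjusted p = 0.0568). The remaining probe set, 1450648_s_at, had NOD placebo below MRL/lpr placebo (-0.85 ± 0.28, adjusted p = 0.105). With T in NOD all 3 rose, by 1.64 to 2.16 on the log2 scale, and for all 3 the change in NOD exceeded that in MRL/lpr (2.38 to 3.22, highest adjusted p = 0.00178). The H2-Ab1 alleles of the strains differ in sequence, and how well each probe binds each allele was not tested, so the strain difference of H2-Ab1 has no settled direction under placebo while contrasts within a strain do not compare alleles.

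H2-Ea is the I-E alpha chain that NOD mice lack. Its probe sets stayed at the edge of detection in MRL/lpr too, and how well they bind the transcript was not tested. On 1422891_at the MRL/lpr placebo pools read 140, 141 and 208 and the MRL/lpr T pools 112, 48.4 and 151. The NOD pools read 22.2, 14.5 and 34.0 under placebo and 49.8, 14.0 and 32.6 under T. All 6 NOD pools were under the floor of 70.5 and 5 of 6 MRL/lpr pools were above it, so the probe set entered the test through MRL/lpr alone and had to differ between strains, as had 1422892_s_at. Their strain differences are a description. Where a pool lies against the floor also depends on the scaling of its array, by factors from 3.33 (NOD T pool 2) to 22.6 (MRL/lpr T pool 3). Under placebo MRL/lpr was at least 2.27-fold higher than NOD on 1422891_at (adjusted p = 0.0286). That call was lost when any 1 of the 6 placebo pools was left out (adjusted p 0.0503 to 0.102). It was also lost with a floor set at 2 times the main one (adjusted p = 0.598) and with Affy signals as deposited (log2 difference -0.9, adjusted p = 0.21). Under T the bound was 1.33-fold and was not called (adjusted p = 0.239). On 1422892_s_at the MRL/lpr placebo pools read 191, 137 and 138 and the NOD placebo pools 87.6, 66.8 and 37.0, without overlap, and 5 of 6 NOD pools were under the floor (log2 difference -1.02 ± 0.30, adjusted p = 0.0614). The third probe set, 1426202_at, was under the floor in 11 of 12 pools and was not tested. The log2 values for T were -0.59 ± 0.31 and -0.54 ± 0.30 in MRL/lpr, neither called (lowest adjusted p = 0.275). RefSeq lists H2-Ea at chr17:34341952-34344645 as a transcribed pseudogene, since the C57BL/6J reference has a broken copy too. Its partner H2-Eb1 thus rose with T in NOD glands in which H2-Ea 1422891_at stayed under the floor.

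**Figure D2:**
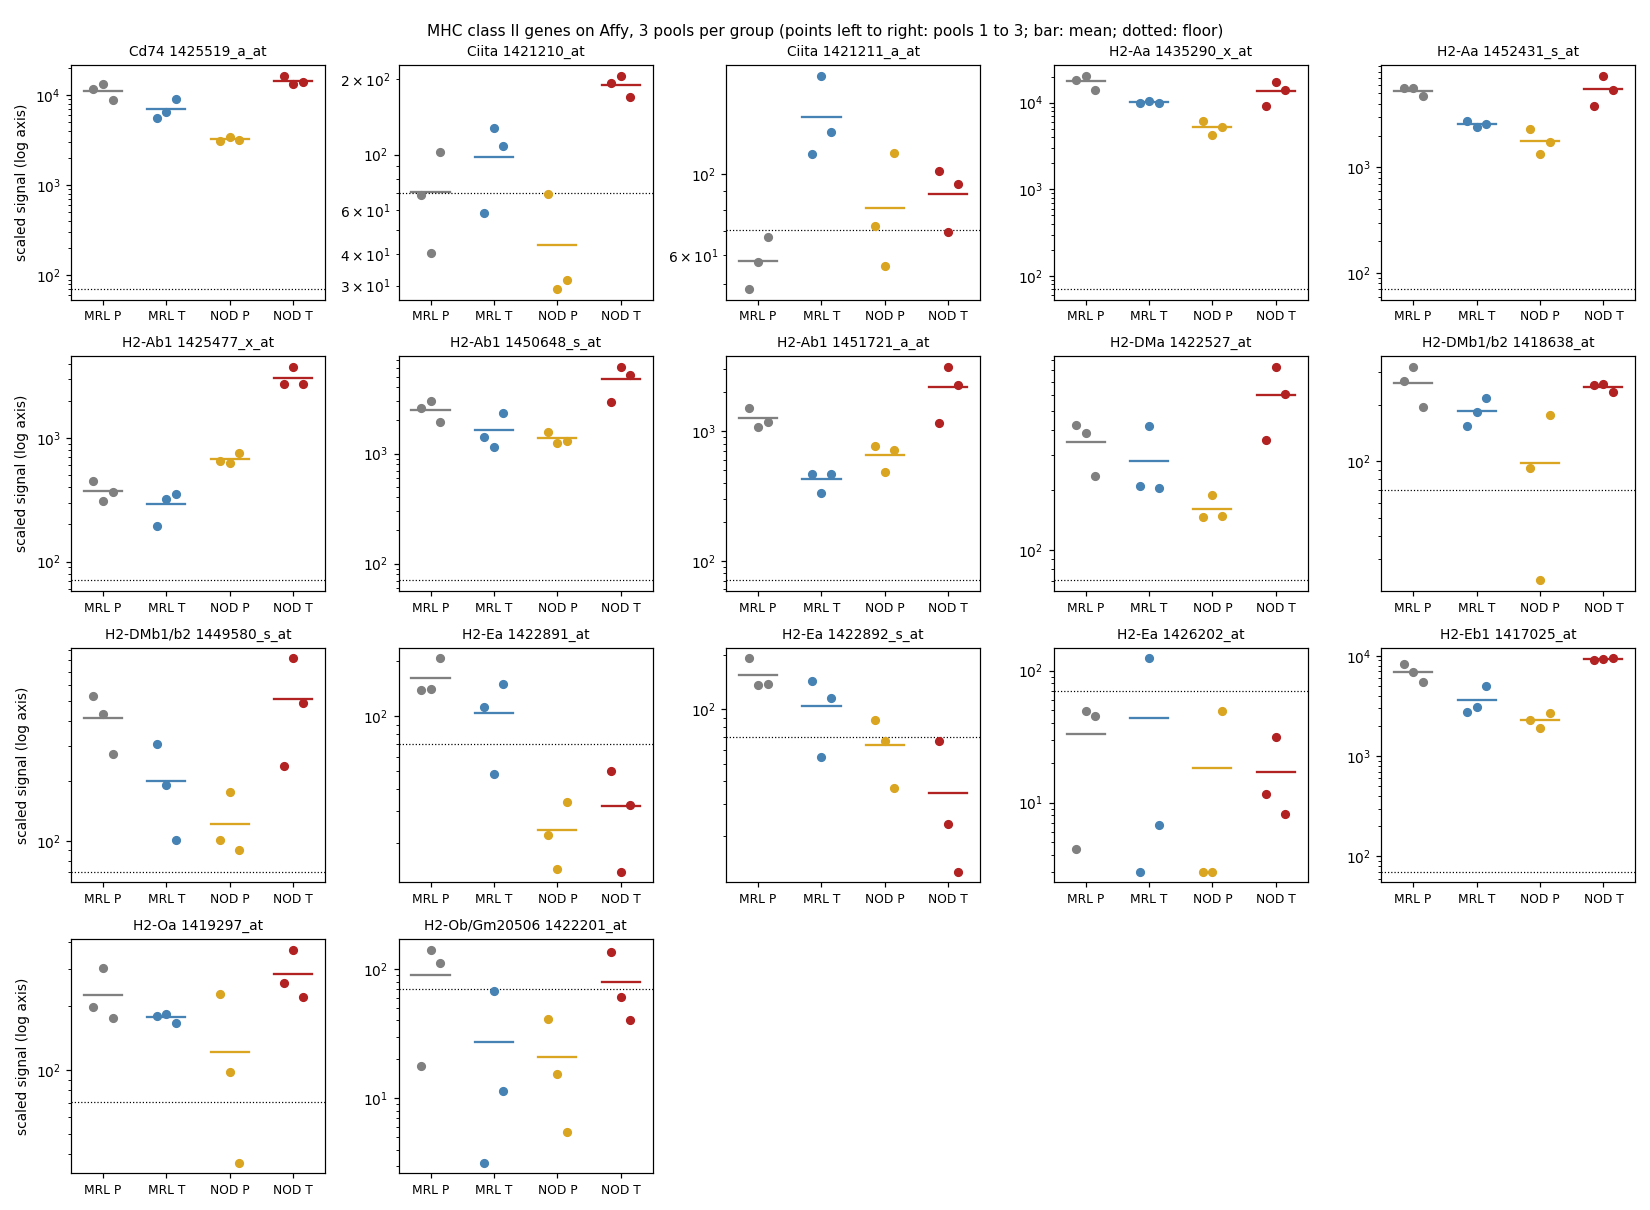
Affy signals, scaled to a trimmed mean of 500 and drawn on a log axis, for the 14 probe sets of 1 symbol and the 3 shared ones, with 3 pools in each of the 4 groups; P is placebo, bars are group means, the dotted line is the floor of 70.5, and signals under 3 are drawn at 3. H2-Aa, H2-Eb1, Cd74 and H2-DMa are lowest in NOD placebo and high in NOD T, whereas H2-Ea 1422891_at is under the floor in all 6 NOD pools.

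Cd74, the invariant chain (chr18:60803849-60812652), rose in NOD on both platforms. CL signals were 28.0, 32.1 and 34.6 in NOD placebo and 83.3, 141 and 153 in NOD T, a rise of 1.95 ± 0.27 (3.86-fold, adjusted p = 0.000371). In MRL/lpr they were 106, 97.7 and 66.1 under placebo and 57.5, 75.7 and 92.4 under T. The MRL/lpr treatments overlapped widely and did not differ beyond the spread between pools (-0.25 ± 0.27, adjusted p = 0.637). On Affy the NOD placebo pools read 3131, 3412 and 3206 and the NOD T pools 16393, 13303 and 14005, a rise of 2.16 ± 0.21 (adjusted p = 2.73e-06). MRL/lpr pools read 11620, 13184 and 8866 under placebo and 5587, 6561 and 9125 under T, with 1 T pool inside the placebo range (-0.67 ± 0.21, adjusted p = 0.067). Under placebo Cd74 was lower in NOD than in MRL/lpr on both platforms, with log2 differences of -1.49 ± 0.27 (CL, adjusted p = 0.0048) and -1.77 ± 0.21 (Affy, adjusted p = 3.28e-05). Under T the order was the reverse on Affy, where NOD was higher by 1.06 ± 0.21 (adjusted p = 0.00393), and the CL difference of 0.72 ± 0.27 was not called (adjusted p = 0.123).

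H2-DM, which loads peptide, followed the chains. H2-DMa on CL read 2.01, 2.08 and 2.26 in NOD placebo, 4.26, 8.18 and 9.21 in NOD T, 6.45, 6.36 and 4.18 in MRL/lpr placebo and 3.65, 3.41 and 4.89 in MRL/lpr T. NOD placebo lay below all other groups, and the MRL/lpr treatments overlapped. It rose by 1.70 ± 0.30 in NOD (adjusted p = 0.00179) with -0.50 ± 0.30 in MRL/lpr (adjusted p = 0.336). On Affy H2-DMa read 148, 190 and 149 in NOD placebo and 358, 831 and 609 in NOD T (1.81 ± 0.38, adjusted p = 0.00467). The change in NOD exceeded that in MRL/lpr by 2.18 ± 0.54 (adjusted p = 0.029), a call kept under 10 of 21 alternatives. It was lost without MRL/lpr placebo pool 1 (adjusted p = 0.0945) or 2, MRL/lpr T pool 1 or 3, NOD placebo pool 1 or 3 or NOD T pool 2 or 3, and with quantile normalization (adjusted p = 0.0544). The shared probe sets, which cannot tell H2-DMb1 from H2-DMb2, rose in NOD as well, 1449580_s_at from 101, 175 and 90.3 to 237, 817 and 487 (1.96 ± 0.48, adjusted p = 0.014) and 1418638_at from 92.1, 23.2 and 177 to 256, 258 and 234 (1.25 ± 0.38, adjusted p = 0.0461). Neither was called in MRL/lpr.

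Of H2-DO, the restraint on H2-DM, only the H2-Oa chain could be read on CL. H2-Oa read 1.70, 1.75 and 2.53 in NOD placebo and 2.82, 3.66 and 4.43 in NOD T, without overlap but not called (0.87 ± 0.37, adjusted p = 0.146). In MRL/lpr it read 2.53, 2.44 and 1.45 under placebo and 1.22, 0.50 and 0.15 under T. The MRL/lpr T pools were all marked near background, so placebo was at least 1.61-fold higher (adjusted p = 0.0123). That call was lost without placebo pool 1 (adjusted p = 0.0551), placebo pool 2 or T pool 2. The change of H2-Oa in NOD exceeded that in MRL/lpr by 2.49 ± 0.52 (adjusted p = 0.0123), a value that rests on the dim MRL/lpr T pools. Unlike H2-Aa, H2-Eb1, Cd74 and H2-DMa, H2-Oa did not differ between the placebo groups of the strains beyond the spread between pools on CL (log2 difference -0.08 ± 0.37, adjusted p = 0.938). On Affy the MRL/lpr pools of H2-Oa read 198, 303 and 176 under placebo and 180, 184 and 167 under T, where no fall was called (-0.31 ± 0.42), and the NOD pools spread from 36.4 to 228 under placebo and from 221 to 370 under T (1.25 ± 0.42, adjusted p = 0.0755). H2-Ob was near background on CL in every pool except NOD T pools 2 and 3, at 1.54 and 1.17, and its shared Affy probe set was above the floor in 3 of 12 pools, so its change could not be read.

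Ciita, the coactivator (chr16:10480014-10531064), rose in NOD on CL from 1.76, 1.60 and 1.61 to 2.89, 4.12 and 3.72, with no overlap (1.10 ± 0.21, 2.14-fold, adjusted p = 0.00301). Its MRL/lpr placebo pools were almost identical, at 2.64, 2.60 and 2.66, and the T pools at 2.14, 2.24 and 3.07 spanned them (-0.10 ± 0.21, adjusted p = 0.841). The difference between the changes was 1.20 ± 0.29 (adjusted p = 0.0269), and it was not called without any 1 of the 3 MRL/lpr placebo pools, MRL/lpr T pool 1 or 2, NOD placebo pool 2 or NOD T pool 2 (adjusted p 0.0565 to 0.0686). The Affy probe sets lay close to the floor and disagreed. On 1421210_at the NOD pools rose from 69.9, 29.0 and 31.5, all under the floor, to 193, 206 and 171, at least 2.69-fold (adjusted p = 0.00474). On 1421211_a_at no change was called in NOD (0.07 ± 0.29) and the MRL/lpr pools rose from 48.5, 57.5 and 67.5, all under the floor, to 114, 186 and 131. This was the only rise called in MRL/lpr, its adjusted p was just inside the threshold (0.05), and it was kept under 5 of 23 alternatives.

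Counted over the family, the response to T was high and in 1 direction in NOD. T raised 6 of 8 member probes on CL, where 7.87% of all tested probes were called higher, and 9 of 13 on Affy, where 5.53% were. None was called lower, against 8.60% of all probes on CL and 3.69% on Affy. The median log2 change of the members was 1.63 on CL and 1.61 on Affy, beside -0.10 and 0.00 over all tested probes. Not called on CL were H2-Oa and H2-Ob, and on Affy H2-Ea, H2-Oa and Ciita 1421211_a_at. In MRL/lpr 0 of 8 CL probes were called higher (background 6.89%) and 2 lower, H2-Aa and H2-Oa (background 5.65%). On Affy 1 of 13 was called higher (background 3.32%) and 3 lower, H2-Aa 1452431_s_at, H2-Ab1 1451721_a_at and H2-Eb1 (background 3.58%), with member medians of -0.51 and -0.59. Without MRL/lpr placebo pool 1, the pool with the salivary signal, 1 CL probe and 1 Affy probe set were called lower in MRL/lpr and none higher, while the NOD counts stayed at 6 and 9. Without NOD T pool 1 the NOD counts were 7 on CL and 9 on Affy, and 5 Affy probe sets were called lower in MRL/lpr.

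**Figure D3:**
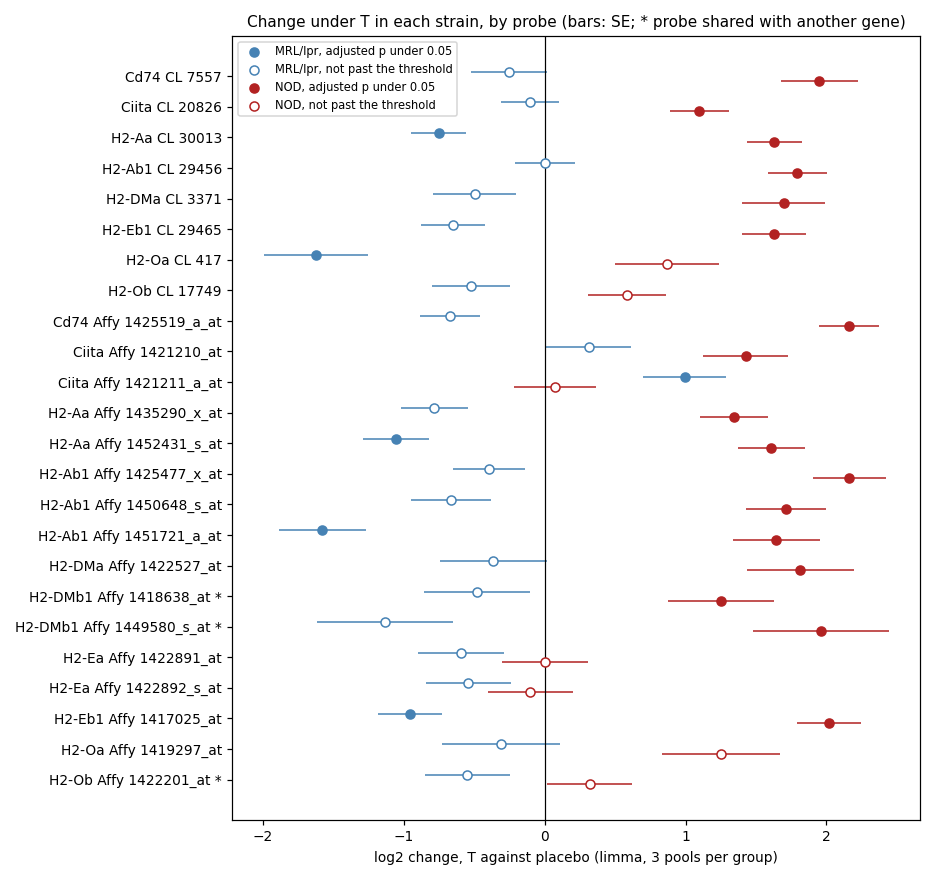
Log2 change of signal under T against placebo in MRL/lpr and in NOD, with 1 line per CL or Affy probe; points are limma estimates from 3 pools per group, bars are SE, filled points have an adjusted p under 0.05, and starred probe sets are shared with another gene. In NOD 6 of 8 CL probes and 9 of 13 unshared Affy probe sets rose, and in MRL/lpr most points lie left of 0 with few filled.

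The changes in the strains were also compared directly. NOD exceeded MRL/lpr in 7 of 8 CL probes (background 3.88%) and 8 of 13 Affy probe sets (background 3.00%), and none differed the other way (background 4.16% and 0.917%). The CL count holds H2-Ab1, whose MRL/lpr pools were all near background, so that its difference only repeats its NOD change. It also holds H2-Oa, whose MRL/lpr T pools were all near background. The exception on CL was H2-Ob, and on Affy the exceptions were H2-Ea, Ciita and H2-Oa. The difference ranged from 1.11 to 2.49 over CL members, with a median of 2.20, and from -0.92 to 3.22 over Affy members, with a median of 2.18. Without MRL/lpr placebo pool 1 the counts were 6 and 7, and without NOD T pool 1 they were 8 and 8. NOD T pool 1 was the lowest NOD T pool on all 8 CL probes and on 7 of 13 Affy probe sets. It was the highest on 4 of these 13 sets, Cd74 among them. On CL the SD between pools was larger in NOD T than in NOD placebo for every member, at higher mean signals.

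The baseline difference between strains ran the other way, although it rests on the same placebo pools as the changes with T and so is not independent of them. Under placebo 4 of 8 CL probes were called lower in NOD than in MRL/lpr (Cd74, H2-Aa, H2-DMa and H2-Eb1, by -1.39 to -1.57, background 4.88%) and 1 was higher, H2-Ab1 (background 4.66%). On Affy 5 of 13 were lower (Cd74, both H2-Aa sets, H2-Eb1 and H2-Ea 1422891_at, background 3.56%) and 0 higher (background 1.78%). Under T no member was called lower in NOD on either platform (background 6.85% on CL and 5.22% on Affy). On CL 4 of 8 were higher, H2-Aa, H2-Ab1, H2-Oa and H2-Ob (background 5.57%), and on Affy 6 of 13, namely Cd74, H2-Aa 1452431_s_at, H2-Eb1 and all 3 H2-Ab1 sets (background 5.39%). The other H2-Aa set, 1435290_x_at, was not called under T (0.38 ± 0.24, adjusted p = 0.349). The H2-Ab1 values compare alleles that differ in sequence. How well a probe binds the allele of each strain was not tested for any member. The H2-Ob call rests on pools near background. That call was lost under 16 of 22 alternatives. Leaving out the probes that passed the filter through 1 strain alone (H2-Ab1 on CL, both H2-Ea sets on Affy), 4 of 7 CL probes and 4 of 11 Affy probe sets were lower in NOD under placebo and none higher, and under T 3 of 7 and 6 of 11 were higher and none lower. The 6 of 11 still held all 3 H2-Ab1 sets. On CL the placebo count of 4 lower was 3 without MRL/lpr placebo pool 1, when H2-DMa was not called (adjusted p = 0.0544). On CL the count of 4 higher under T was 7 without NOD T pool 1 and 3 without MRL/lpr placebo pool 1. It was 2 without NOD T pool 2, without NOD T pool 3 or without MRL/lpr T pool 2. On Affy the placebo count of 5 lower was 4 without MRL/lpr placebo pool 1 and was 8, with 1 higher, without NOD T pool 1. The Affy count of 6 higher under T was 8 without NOD T pool 1.

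**Figure D4:**
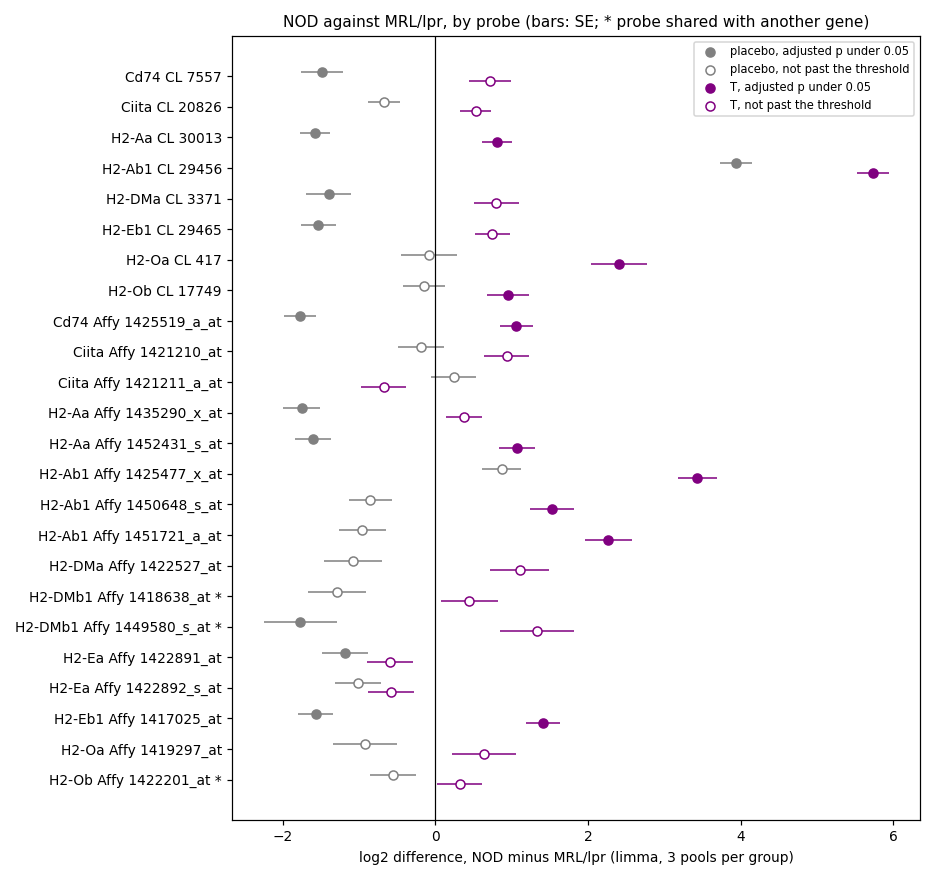
Log2 difference of signal between NOD and MRL/lpr under placebo and under T, with 1 line per CL or Affy probe; points are limma estimates from 3 pools per group, bars are SE, filled points have an adjusted p under 0.05, and starred probe sets are shared with another gene. Cd74, H2-Aa, H2-DMa and H2-Eb1 lie left of 0 under placebo and right of it under T, H2-Ab1 on CL stands far right under both, and H2-Ea lies left of 0 under both.

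Class II is made mainly by immune cells and can be induced in other cell types, epithelium included. In whole-gland RNA a change in the number of cells that make it cannot be told apart from a change in RNA per cell. Genes of the wider pathway and markers of the cell types the gland can hold were therefore set beside the members, each gene by its brightest probe. The leukocyte markers, 6 of 6 measured on both platforms and none under the floor on all arrays, had summed CL signals of 6.99 to 8.29 in NOD placebo and 22.3 to 34.2 in NOD T, and of 20.3 to 29.3 in MRL/lpr placebo and 22.5 to 33.8 in MRL/lpr T. In NOD 4 of 6 rose on CL and 5 of 6 on Affy, with median log2 changes of 1.72 and 2.10. In MRL/lpr 2 fell on each platform and 1 rose on CL (medians -0.77 and -1.01). Without MRL/lpr placebo pool 1 the MRL/lpr falls were 1 on each platform, and without NOD T pool 1 they were 2 on CL and 4 on Affy. Under placebo 5 of 6 leukocyte markers were lower in NOD than in MRL/lpr on each platform and 0 higher (medians -1.49 and -2.02). The class II medians for this contrast were -1.03 and -1.02. Without MRL/lpr placebo pool 1 the leukocyte counts were 5 on CL and 3 on Affy. Of the B cell markers 0 were called for this contrast. A few bright probes carry the sums. Cd53, a leukocyte tetraspanin, had mean CL signals of 6.33 in MRL/lpr placebo and 17.6 in MRL/lpr T, a rise of 1.45 ± 0.25 (adjusted p = 0.00237), whereas its Affy probe set fell by 2.09 (SE 0.24, adjusted p = 2.56e-05). Cd79a and Cd4 likewise were the brightest CL probes of the B cell and T cell lists. Ptprc, the pan-leukocyte CD45, rose by 2.17 ± 0.27 in NOD (adjusted p = 0.000186) and fell by 1.49 in MRL/lpr (SE 0.27, adjusted p = 0.00367) on CL. The B cell markers, of which CL measured 7 of 8, summed on CL to 18.4 to 21.7 in NOD placebo, 24.9 to 29.3 in NOD T, 19.8 to 25.1 in MRL/lpr placebo and 4.74 to 16.8 in MRL/lpr T. On CL 2 of 7 rose in NOD and 3 of 7 fell in MRL/lpr, and on Affy 5 rose and 2 fell, respectively. Without MRL/lpr placebo pool 1 the MRL/lpr falls were 1 on CL and 0 on Affy. Ms4a1, the B cell antigen CD20, rose by 2.24 ± 0.37 in NOD and fell by 1.53 in MRL/lpr on CL (SE 0.37, adjusted p = 0.00123 and 0.0178). T cell markers rose in NOD at 3 of 4 on CL and 3 of 6 on Affy, or at 2 on each without NOD T pool 1, and macrophage and dendritic cell markers at 2 of 6 and 5 of 10. Summed CL signals of the T cell markers were 10.4 to 11.7 in NOD placebo, 17.0 to 24.4 in NOD T, 15.6 to 22.7 in MRL/lpr placebo and 15.7 to 27.9 in MRL/lpr T, and those of the macrophage and dendritic cell markers were 10.6 to 11.3, 15.6 to 25.1, 11.9 to 12.5 and 10.1 to 12.8. Of the glandular epithelium markers, 0 of 7 changed in NOD on CL, and 1 rose and 3 fell on Affy. In MRL/lpr Lpo rose and Epcam fell on CL, and 1 of 8 rose on Affy. Of the T cell markers 1 fell in MRL/lpr on each platform, and of the macrophage and dendritic cell markers 0 on CL and 1 on Affy. Without MRL/lpr placebo pool 1 these T cell and macrophage marker falls and the epithelial rise on Affy were not called. The part of these cells in the class II values was not tested.

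Other genes of the class II pathway were mixed. Of the antigen processing genes, 2 of 7 rose in NOD on CL and 3 of 7 on Affy. Ctss, the cathepsin that trims Cd74 to the piece left in the groove, rose by 1.93 ± 0.25 (CL, adjusted p = 0.00022) and 1.64 ± 0.28 (Affy, adjusted p = 0.00096), and Lgmn, a lysosomal endopeptidase, by 2.38 ± 0.45 and 1.99 ± 0.26 (adjusted p = 0.0028 and 6.42e-05). Of the interferon gamma genes 3 of 6 rose and 1 fell in NOD on each platform. Irf1, an interferon-induced factor that acts on Ciita, rose by 1.59 ± 0.23 on CL (adjusted p = 0.000421), and its changes in MRL/lpr were -0.68 ± 0.23 on CL and -0.54 ± 0.20 on Affy, neither called (adjusted p = 0.0758 and 0.118). The costimulatory genes, which antigen-presenting cells display beside class II, rose at 3 of 6 on both platforms in NOD. Among them Cd86 rose by 2.66 ± 0.25 on CL (adjusted p = 1.86e-05), with 0.15 ± 0.25 in MRL/lpr. Other genes of these lists did change in MRL/lpr. On CL Ifngr1, a chain of the interferon gamma receptor, fell by 1.04 (adjusted p = 0.0366), Jak2, its kinase, by 0.89 (adjusted p = 0.0128) and Cd274, the inhibitory ligand PD-L1, by 0.95 (adjusted p = 0.0172), and Irf8 rose by 0.55 (adjusted p = 0.0175). On Affy Jak1 fell by 1.21 (adjusted p = 0.000758), and so did 2 of 7 processing genes, Ctsb, a cathepsin, by 1.09 (adjusted p = 0.00468) and Ifi30, a lysosomal thiol reductase, by 1.19 (adjusted p = 0.000535). The class II transcription list held the RFX and NF-Y subunits, Creb1 and Crebbp, and Rfx5 and Crebbp had no CL probe under their symbol. With T in NOD 0 of 6 of these genes were called on CL and 0 of 8 on Affy. Over all tested probes 7.87% were called higher and 8.60% lower on CL, and 5.53% and 3.69% on Affy. A count of 0 in so few genes is near these shares. Creb1 was the only one called in MRL/lpr, where it rose by 0.79 ± 0.18 on CL (adjusted p = 0.0129) and not on Affy. Neither Cd4 nor Lag3, the T cell receptors for class II, was called for T in either strain on either platform.

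**Figure D5:**
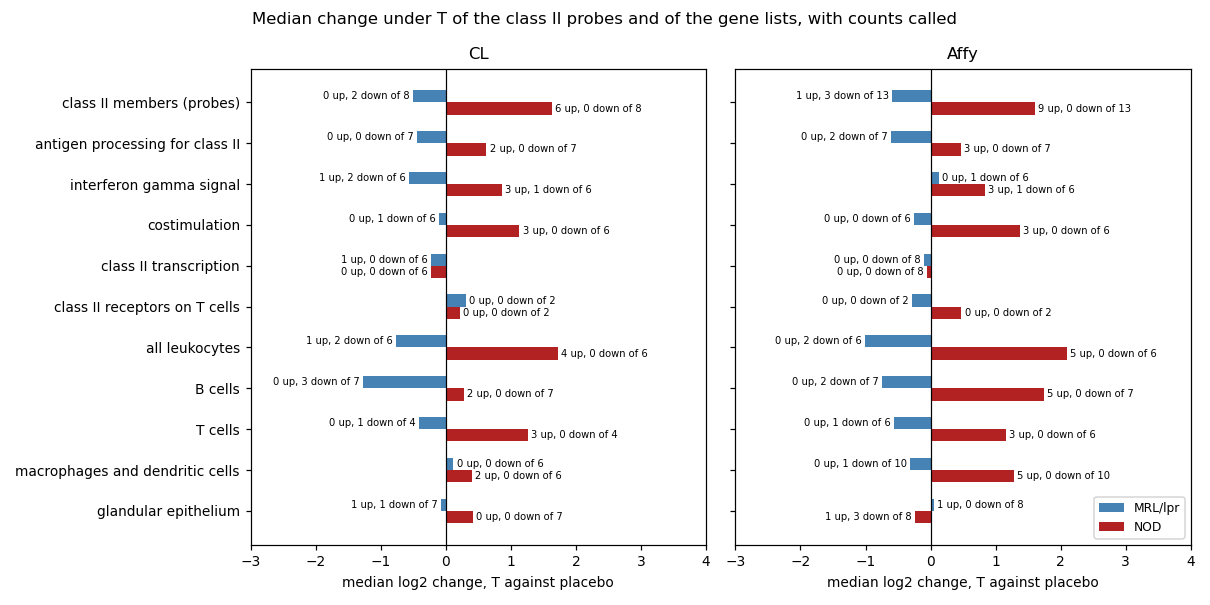
Median log2 change under T, with 1 bar per strain, for the class II member probes and for 10 gene lists on CL and on Affy; the text at each bar gives how many were called higher (up) and lower (down) of those tested. In NOD the medians of the class II members and of 8 lists lie right of 0 on both platforms, that of class II transcription lies left of 0 on both, and that of glandular epithelium lies right of 0 on CL and left of it on Affy.

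The members were also ranked by how closely their log2 signals followed those of Cd74 over the 12 arrays of a platform, as a description, since the arrays form 4 groups and a shared group pattern sets most of it. On CL Pearson's r was 0.975 for H2-DMa, 0.939 for Ciita, 0.936 for H2-Eb1 and 0.879 for H2-Aa. It was 0.544 for H2-Ob, 0.229 for H2-Oa and -0.004 for H2-Ab1, whose MRL/lpr pools are all at the floor. On Affy, by the brightest probe set of each gene, it was 0.956 for H2-Eb1, 0.83 for H2-Aa, 0.806 for H2-Ab1, 0.798 for H2-DMa, 0.718 for H2-Oa, 0.648 for Ciita and 0.198 for H2-Ea. The 6 genes outside the family closest to Cd74 among 8913 on CL were Sh2d2a, Ccl5, Aif1, Kcnh7, Srgn and Fcer1g (0.955 to 0.981). Among 10406 genes on Affy they were Sirpa, Ifi47, Parp9, Cxcl9, Trbv1 and Igtp (0.952 to 0.98). No gene stands in both lists.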

How the data were processed

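The 12 CL and 12 Affy arrays were grouped by strain and treatment from the sample labels. The authors' deposited CL values are spot intensities divided by each array's median, and spots marked contaminated, irregular or masked were left out (455 values). The deposited Affy values are probe set intensities from the GCOS software, whose version is not given in the sources used here. They were not at the trimmed mean of 500 that the methods state, so each array was scaled to it (2% trimmed at each end). Signals below the floor (0.5 on CL, 70.5 on Affy, which is 0.5 of the median) were raised to it, probes were kept when the mean of at least 1 group exceeded it, and log2 values were fitted with limma 3.58.1 (R 4.3.3, lmFit and eBayes with a trend), with 1 mean per group over the 12 arrays of a platform. P was adjusted by Benjamini-Hochberg over all probes tested. Tables were made with Python 3.11.15, pandas 2.3.3 and numpy 2.4.6.

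Gene names came from the platform annotation updated through RefSeq (GRCm38.p6). Some groups had every pool dim, by the scanner mark on CL or below the floor on Affy. A fold against them is a bound, taken on each array against the larger of the probe's own signal and the least signal not marked dim (on Affy, the floor). The members, gene lists and tests were chosen with earlier results of these data known. All members are named, with up to 4 genes per list by adjusted p of the difference of T effects on CL. The labels do not say whether pools of a group share a cage or day, so p measures the spread between these pools. Arrays carry no depth, and their number limits the precision. Alternatives were quantile normalization, other floors, filters and scalings, raw intensities with normexp (offset 50), a fit per strain, the methods' t-test, a replicate block and leaving out each pool.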

Additional observations from a re-analysis of the deposited data

Results flagged for a closer look

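The response to T differed between the strains, by the test of the difference itself (NOD change minus MRL/lpr change, log2, limma), for 7 CL probes. These were H2-Oa (2.49), H2-Aa (2.38), H2-Eb1 (2.28), Cd74 (2.20), H2-DMa (2.19), H2-Ab1 (1.79) and Ciita (1.20). On Affy it differed for 8 probe sets of 1 symbol. They were H2-Ab1 1451721_a_at (3.22), 1425477_x_at (2.56) and 1450648_s_at (2.38), H2-Eb1 (2.98), Cd74 (2.83), H2-Aa 1452431_s_at (2.67) and 1435290_x_at (2.13) and H2-DMa (2.18). The set 1449580_s_at, shared by H2-DMb1 and H2-DMb2, differed by 3.10. Adjusted p ranged from 2.63e-05 for Cd74 on Affy to 0.029 for H2-DMa on Affy. The H2-Ab1 value on CL holds no measured MRL/lpr change, since all 6 MRL/lpr pools were near background. The H2-Oa value on CL rests on MRL/lpr T pools that were all near background, and it ran from 0.80 to 2.92 over the alternatives. The H2-DMa call on Affy was lost under 11 of 21 alternatives. The leukocyte marker Ptprc differed in the same direction, by 3.66 on CL and 3.17 on Affy, and its part in these values was not tested.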

How the results depend on the processing

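Pool numbers did not pair the samples (deviations of the 18 same-numbered pairs correlated at -0.073 to 0.084 on CL and -0.067 to 0.103 on Affy). With the replicate block the CL counts were 2 for T in MRL/lpr, 6 for T in NOD, 7 for the difference of T effects, 5 for strains under placebo and 3 for strains under T, and the Affy counts 3, 9, 8, 5 and 6. Of 56 single calls, none changed direction under any alternative, and 16 were kept under all of them. After Benjamini-Hochberg adjustment the methods' t-test, which was not run for the difference of T effects, called 0, 0, 3 and 0 CL probes and 0, 1, 0 and 0 Affy probe sets for T in MRL/lpr, T in NOD, strains under placebo and strains under T. Without adjustment it called 10 Affy sets for strains under placebo. With each strain fitted alone, 1 CL probe was called for T in MRL/lpr and 4 Affy sets for T in NOD. Without a filter, 2 Affy sets were called for T in MRL/lpr. Affy signals as deposited, whose median probe differed by 1.52 on the log2 scale between the strains under T, gave 0 calls for T in MRL/lpr, 0 for strains under placebo and 11 for strains under T. Leaving out each pool in turn gave 0 to 2 CL calls and 1 to 6 Affy calls for T in MRL/lpr, 6 to 7 and 9 to 10 for T in NOD, 6 to 8 and 7 to 8 for the difference, 4 to 6 and 4 to 9 for strains under placebo, and 2 to 7 and 6 to 8 for strains under T. CL calls for T in MRL/lpr were 0 without placebo pool 2 or T pool 2 and 1 without placebo pool 1, placebo pool 3 or T pool 3; Affy calls there were 1 without placebo pool 1, placebo pool 2 or T pool 2. Probes near background (H2-Ob, H2-Oa, H2-Ea and Ciita on Affy) limit what the arrays can show.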
